A study of Mus musculus with 72 samples.

Results

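The 10 genes described here are Rnf43, Znrf3, Fzd7, Lef1 and Tcf7 of the Wnt system and Notch1, Notch2, Hey1, Hes1 and Dtx1 of the Notch system. They are 10 of 35556 genes in each relapse table, of 35149 genes in the acute input table and of 30901 genes in the acute polysomal table. They were chosen by measured values, the lower levels of Rnf43 and Fzd7 and the higher level of Hey1 in relapse lines than in naive lines. Their differences between those lines are therefore given as a description, with no test. That pattern was seen in every drug group for Rnf43 and Hey1, whereas for Fzd7 only the everolimus group had all of its lines below the naive lines.

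Wnt and Notch are short-range signalling systems in which a ligand on or near one cell changes transcription in another. In canonical Wnt signalling a Frizzled receptor and an Lrp co-receptor bind the ligand, β-catenin escapes degradation and enters the nucleus, and there it joins the DNA-binding proteins of the Tcf/Lef family. In Notch signalling the receptor is cut after ligand binding, and its intracellular part joins Rbpj on DNA and turns on genes such as those of the Hes and Hey repressors. In the lymphoid system Tcf7 and Notch1 are known for their roles in T cell development, Notch2 for marginal zone B cells and Lef1 for immature B and T cells.

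The material was Eμ-Myc B lymphoma, which arises in mice whose B cells overexpress Myc from an immunoglobulin enhancer, and every sample carried the retroviral vector MSCV Gfp. CX5461 blocks transcription of ribosomal RNA genes by RNA polymerase I. Everolimus blocks the mTORC1 kinase, which stimulates protein synthesis. The relapse study used early-passage lines of clone 107, taken from lymph nodes of mice that succumbed to the lymphoma after CX5461 (lines 14, 20 and 39), everolimus (lines 4, 12 and 26), the combination of both drugs (lines 8, 9 and 31) or vehicle (lines 6, 33 and 38, called naive). The lines were grown for 2 to 3 passages. The acute study used clone 4242 in C57BL/6 mice, treated for 2 h on day 10 after transplantation, with 6 mice per group. The doses were 35 mg/kg for CX5461 and 5 mg/kg for everolimus, alone or together, and controls had vehicle. Each setting thus rests on 1 clone, and the relapse lines and the acute lymphomas differ in clone, in growth in culture and in time. Cytoplasmic RNA (input) and RNA bound by at least 4 ribosomes (polysomal) were sequenced from each line or mouse, which made 72 libraries.

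Library totals were 14.6 to 26 M counts in the relapse input, 15.5 to 30.4 M in the relapse polysomal RNA, 17.1 to 24.7 M in the acute input and 11.5 to 20.9 M in the acute polysomal RNA. In the relapse lines 8 B cell markers had the highest sum, at 1240 to 2530 CPM (counts scaled to library size). The 15 T cell markers summed to 2.22 to 12.6 CPM and 8 stromal markers to 0 to 2.11 CPM. Sums were 5.1 to 8.61 CPM for 7 myeloid markers and 32.8 to 118 CPM for 8 endothelial markers. The acute libraries held more RNA of other cells, with T cell markers at 62.9 to 146 CPM and stromal markers at 920 to 2210 CPM. Myeloid markers were at 414 to 714 CPM there and endothelial markers at 166 to 301 CPM. Over all genes the input library of a line was most alike to the polysomal library of the same line in 5 of 12 lines, against 19 of 24 mice in the acute study. Everolimus mice 1 and 3 were the closest pair of the acute input, with a median gene variance 1.3 times that of sampling. They were kept as separate mice. The columns of the relapse tables stand in runs, of unstated meaning, and the polysomal libraries of CX5461 lines 14 and 39 form a run of their own. P-values below measure the spread between these lines or mice. In bulk RNA, fewer cells that express a gene and less RNA per cell cannot be told apart.

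Promoter sequence is shown for the genes whose RNA differed most between lines and is in the RefSeq table of GRCm38.p6, which held 7 of the 10 genes with 12 start sites. Each run is the 250 bases before an annotated start, read 5′ to 3′ on the strand of the gene, and capitals mark a motif match on either strand.
Rnf43 promoter, chr11:87662837-87663086 (+): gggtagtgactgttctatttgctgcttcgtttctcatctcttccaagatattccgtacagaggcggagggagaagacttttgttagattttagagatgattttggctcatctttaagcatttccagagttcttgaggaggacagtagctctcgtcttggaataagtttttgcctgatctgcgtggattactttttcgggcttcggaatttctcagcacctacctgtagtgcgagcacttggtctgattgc
Fzd7 promoter, chr1:59481897-59482146 (+): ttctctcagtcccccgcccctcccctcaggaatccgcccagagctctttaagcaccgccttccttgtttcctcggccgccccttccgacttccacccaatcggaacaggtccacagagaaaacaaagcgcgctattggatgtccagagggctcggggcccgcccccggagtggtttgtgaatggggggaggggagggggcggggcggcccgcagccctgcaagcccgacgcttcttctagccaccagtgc
Lef1 internal promoter, chr3:131156044-131156293 (+): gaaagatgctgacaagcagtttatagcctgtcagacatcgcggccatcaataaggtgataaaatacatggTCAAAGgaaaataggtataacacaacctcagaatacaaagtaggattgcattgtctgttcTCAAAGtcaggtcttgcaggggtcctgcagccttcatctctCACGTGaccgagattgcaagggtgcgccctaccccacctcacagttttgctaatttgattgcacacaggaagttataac

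The motifs searched on both strands were TGGGAA for Rbpj, CTTTGA for Tcf/Lef proteins and CACGTG, the E-box that Myc and its relatives can bind. Of 32851 mouse promoter windows of the same length, 21.6% held TGGGAA, 13.8% held CTTTGA and 6.02% held CACGTG. Among the 12 windows of the 10 genes only the internal Lef1 promoter had a match, with CTTTGA on the minus strand at -180 and -120 and CACGTG at -79, counted from the start site. A match is a description of letters and not of binding.

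Rnf43 lies on chromosome 11 of GRCm38 from 87662722 to 87735539 on the plus strand. It encodes a membrane ubiquitin ligase that removes Frizzled receptors from the cell surface and so dampens Wnt signalling. In the input its level was 0.0859, 0.115 and 0.204 CPM in CX5461 lines 14, 20 and 39, 20.9, 0.0946 and 0 CPM in everolimus lines 4, 12 and 26, and 0.104, 0.0875 and 0.0535 CPM in combination lines 8, 9 and 31, against 83.8, 76.6 and 53.9 CPM in naive lines 6, 33 and 38. All 9 lines from drug-treated mice were thus below all naive lines, and everolimus line 4 was the only one of them with more than a trace.

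Summed counts show how little Rnf43 RNA was left. The 3 CX5461 input libraries held 9 counts, against 4556 counts in the 3 naive libraries, a level 508-fold lower (95% counting interval 267 to 1110). The combination lines were 852-fold lower (365 to 2630), and everolimus lines 12 and 26 together held 2 counts and were 1310-fold lower (362 to 10800). Everolimus line 4, with 297 counts, was 3.36-fold lower (2.99 to 3.79). These intervals cover counting error only, not the spread between lines.

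The polysomal libraries also held little Rnf43 in drug lines. Its polysomal level was 0.0773, 0.0462 and 0 CPM in CX5461 lines 14, 20 and 39, 20.2, 0.113 and 0.118 CPM in everolimus lines 4, 12 and 26, and 0.0662, 0.103 and 0.14 CPM in combination lines 8, 9 and 31, against 90.7, 79.4 and 71.2 CPM in naive lines 6, 33 and 38. Everolimus line 4 again stood between the naive lines and the others, 4.03-fold lower than naive lines (3.61 to 4.51). The fitted log2 fold change of everolimus lines in the input was -3.41 with line 4 and -10.29 without it. Within each run of columns in the input table the drug lines were also all lower: naive lines 33 and 38 stand with 5 drug lines in one run, and naive line 6 with the other 4 drug lines.

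Znrf3, the close relative of Rnf43 with the same activity on Frizzled receptors, did not follow it. Znrf3 in the input was 34.7, 28.6 and 30.1 CPM in CX5461 lines, 24.9, 25.7 and 30.3 CPM in everolimus lines and 23.6, 23.1 and 30 CPM in combination lines, against 27.8, 23 and 18.6 CPM in naive lines. CX5461 lines were all above the naive range and the other drug groups overlapped it. The fitted log2 fold changes were 0.41 ± 0.16, 0.18 ± 0.16 and 0.10 ± 0.16 (SE). All 3 drug groups overlapped the naive lines for polysomal Znrf3.

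Fzd7 encodes a Wnt receptor and lies on chromosome 1 from 59482424 to 59486955. In the input Fzd7 was at 16.4, 2.3 and 17.9 CPM in CX5461 lines 14, 20 and 39, at 0.492, 0.898 and 0.062 CPM in everolimus lines 4, 12 and 26, and at 5.11, 7.84 and 7.59 CPM in combination lines 8, 9 and 31, against 2.33, 6.8 and 5.81 CPM in naive lines 6, 33 and 38. The everolimus lines were all below the naive lines, by 9.48-fold in summed counts (6.4 to 14.6). CX5461 lines 14 and 39 were above every naive line, while CX5461 line 20 was just below the lowest of them. Combination lines overlapped the naive lines.

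Polysomal Fzd7 was at 21.8, 2.08 and 19 CPM in CX5461 lines, 0.898, 1.21 and 0.823 CPM in everolimus lines and 6.03, 8 and 7.23 CPM in combination lines, against 2.95, 5.21 and 5.78 CPM in naive lines. The order of groups was that of the input, with the everolimus lines lower by 4.48-fold (3.38 to 6.02). Here the combination lines were all above the naive range, by 1.58-fold in summed counts. CX5461 lines 14 and 39 resembled each other across several of the 10 genes and differed from line 20. Over all genes their input libraries were the second closest of the relapse input, after those of everolimus lines 4 and 26, with a median gene variance 6.12 times that of sampling, so they were kept as separate lines.

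Lef1 and Tcf7 encode the DNA-binding proteins through which β-catenin acts. Lef1 in the input was at 14.4, 4.94 and 13.7 CPM in CX5461 lines 14, 20 and 39, 22.2, 0.473 and 2.54 CPM in everolimus lines 4, 12 and 26, and 0.521, 17.1 and 1.66 CPM in combination lines 8, 9 and 31, against 0.714, 0.319 and 0.757 CPM in naive lines 6, 33 and 38. All CX5461 lines were above the naive range. In the other drug groups 1 line carried most of the difference: the fitted log2 fold change was 3.73 with everolimus line 4 and 1.21 without it, and 3.33 with combination line 9 and 0.79 without it.

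Polysomal Lef1 was at 5.26, 9.39 and 3.87 CPM in CX5461 lines, 25.7, 0.453 and 3.53 CPM in everolimus lines and 0.729, 21.8 and 1.49 CPM in combination lines, against 0.795, 0.401 and 0.365 CPM in naive lines. Everolimus line 4 and combination line 9 were again the highest, while CX5461 line 20, the lowest of its group in the input, was the highest of it here. Everolimus line 4 was thus high in Lef1 and the only drug line with Rnf43 above a trace. Tcf7 was low throughout, at 2.1, 1.03 and 2.29 CPM in CX5461 lines, 1.06, 0.189 and 0.807 CPM in everolimus lines and 2.03, 1.31 and 1.6 CPM in combination lines, against 0.428, 0.691 and 0.597 CPM in naive lines, in the input. CX5461 and combination lines were all above the naive lines for Tcf7, by 3.31-fold and 2.86-fold in summed counts, and everolimus lines overlapped them. The sign of the small everolimus difference of Tcf7 in the input held in 10 of 12 fits that left out 1 line. For polysomal Tcf7 only the CX5461 lines were all above the naive lines, by 2.17-fold. Combination lines, 1.76-fold higher in summed counts, and everolimus lines overlapped the naive lines there.

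**Figure D1:**
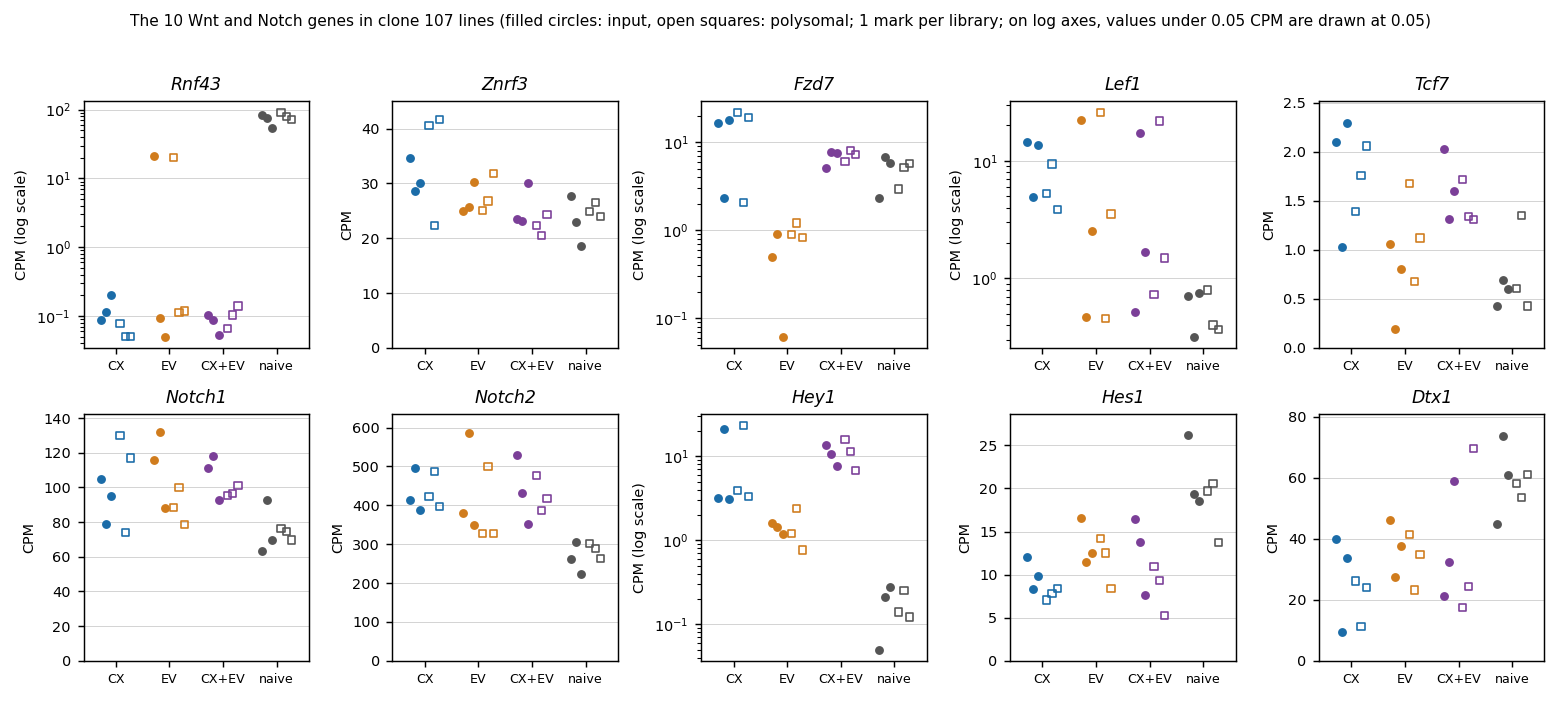
Levels of the 10 genes in each clone 107 line, in CPM (log axis for Rnf43, Fzd7, Lef1 and Hey1, linear for the others), by treatment of the mouse the line came from; circles are input and squares polysomal libraries, CX is CX5461, EV everolimus and CX+EV the combination. Rnf43 sits near 0 in all drug lines but everolimus line 4 (20.9 CPM in the input), and Hey1 is above the naive lines in all 9 drug lines.

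Hey1, a repressor induced by Notch, lies on chromosome 3 from 8663359 to 8667256. Its input level was 3.22, 21.1 and 3.1 CPM in CX5461 lines 14, 20 and 39, 1.62, 1.42 and 1.18 CPM in everolimus lines 4, 12 and 26, and 13.8, 10.7 and 7.65 CPM in combination lines 8, 9 and 31, against 0.0476, 0.213 and 0.279 CPM in naive lines 6, 33 and 38. No drug line overlapped the naive lines. In summed counts Hey1 was 43.1-fold higher in CX5461 lines (24.5 to 83.9), 7.57-fold higher in everolimus lines (4.08 to 15.3) and 58-fold higher in combination lines (33 to 113). CX5461 line 20 carried much of the CX5461 fold, since the fitted log2 fold change in the input was 5.54 with it and 4.02 without it.

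Polysomal Hey1 was at 3.94, 23.3 and 3.31 CPM in CX5461 lines, 1.2, 2.38 and 0.764 CPM in everolimus lines and 15.9, 11.4 and 6.72 CPM in combination lines, against 0.14, 0.25 and 0.122 CPM in naive lines. No drug line overlapped the naive lines there either, and CX5461 line 20 was the highest in both fractions. It was also the CX5461 line with the least Fzd7.

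Hes1, a Notch-induced repressor related to Hey1, was lower in the drug lines. It was at 12, 8.32 and 9.8 CPM in CX5461 lines, 16.6, 11.5 and 12.5 CPM in everolimus lines and 16.4, 13.8 and 7.59 CPM in combination lines, against 26.2, 19.3 and 18.5 CPM in naive lines, in the input. All 9 drug lines were below all naive lines, by 2.08-fold, 1.61-fold and 1.67-fold in summed counts of the CX5461, everolimus and combination groups. Polysomal Hes1 was lower by 2.35-fold, 1.55-fold and 2.25-fold, with only everolimus lines overlapping the naive lines.

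Dtx1, a ubiquitin ligase of the Deltex family that binds Notch receptors, was at 40, 9.41 and 33.6 CPM in CX5461 lines, 46.2, 27.4 and 37.5 CPM in everolimus lines and 21.3, 32.3 and 59 CPM in combination lines, against 44.8, 73.8 and 60.8 CPM in naive lines, in the input. CX5461 lines were all below the naive range, and in the other groups 1 line each overlapped it. Within the 9 drug lines Dtx1 was lowest in CX5461 line 20, the line in which Hey1 was highest.

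The receptors were higher in drug lines by smaller factors. Notch2 was at 413, 496 and 387 CPM in CX5461 lines, 379, 586 and 349 CPM in everolimus lines and 530, 432 and 353 CPM in combination lines, against 261, 305 and 222 CPM in naive lines, in the input. The 9 drug lines were all above the naive lines, by 1.65-fold, 1.76-fold and 1.7-fold in summed counts, and by 1.5-fold, 1.41-fold and 1.48-fold in the polysomal RNA, again without overlap. Notch1 was at 105, 79.1 and 95.2 CPM in CX5461 lines, 116, 132 and 88.1 CPM in everolimus lines and 111, 118 and 92.7 CPM in combination lines, against 63.5, 92.9 and 69.9 CPM in naive lines, in the input. For Notch1 every drug group had 1 line below naive line 33 in the input, and everolimus and combination lines were above the naive range in the polysomal RNA. Notch1, Lef1, Tcf7 and Rnf43 overlap annotated transcripts on the opposite strand, and the strand setting of the counting is not given in the sources used here, so reads of those transcripts cannot be told apart from those of the genes.

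**Figure D2:**
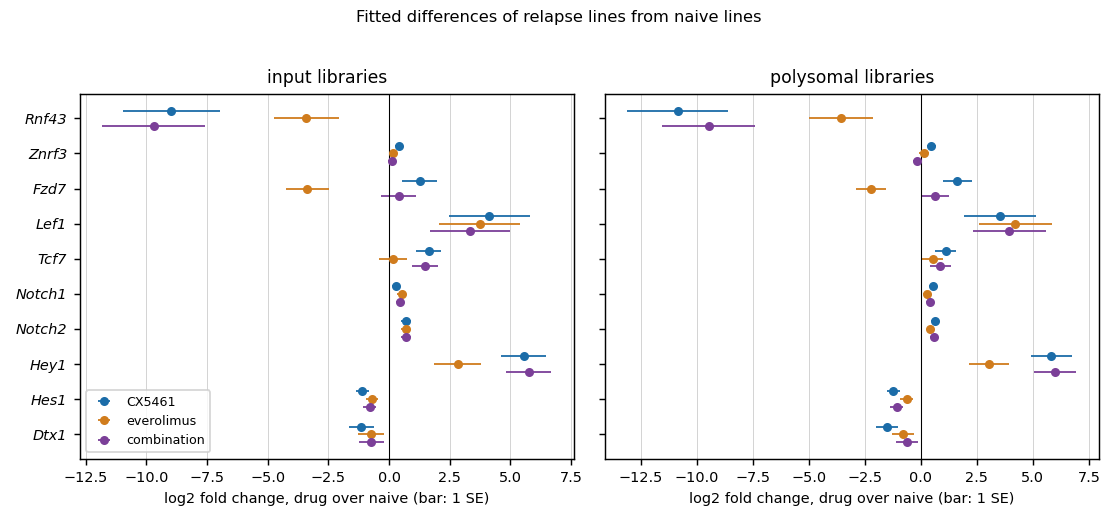
Fitted log2 fold changes of each drug group over the naive lines with 1 SE, for the 10 genes in input and polysomal libraries (n = 3 lines per group). Rnf43 lies far to the left for CX5461 and the combination (-8.97 and -9.70 in the input), Hey1 to the right for all drugs (5.54, 2.82 and 5.76 for CX5461, everolimus and the combination), and Fzd7 to the left for everolimus alone (-3.36).

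The 10 genes can be set against all genes of each table, with nothing read from it since these contrasts chose them. In the input, edgeR's quasi-likelihood test called 8.85% of genes for CX5461, 12.1% for everolimus and 13.8% for the combination against naive lines, at an adjusted p of 0.05, and 4, 2 and 3 of the 10 genes were among them. For polysomal RNA it called 19.5%, 0.128% and 10.2% of genes, and 4, 0 and 4 of the 10. For everolimus 5 of the 10 had an unadjusted edgeR p under 0.05 there, beside 1243 of all 14797 genes. DESeq2 called 2 of the 10, beside 215 genes in all. The 3 drug groups share the same 3 naive lines. Left out 1 line at a time, the fitted differences of the 10 genes kept their sign in all 12 fits in each comparison, except for Tcf7 with everolimus in the input and Znrf3 with the combination in the input (11 of 12). Some of the 12 fits left out a line of a drug group outside the comparison, so the compared lines were unchanged in them.

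Across the 12 lines the input and polysomal levels (log2 CPM) of a gene correlated with r of 0.987 for Rnf43, 0.981 for Hey1, 0.951 for Fzd7, 0.927 for Lef1, 0.921 for Notch2 and for Dtx1, 0.879 for Hes1, 0.757 for Tcf7, 0.627 for Znrf3 and 0.606 for Notch1. The libraries share the treatment of the line, and naive and drug lines form separate clusters for Rnf43 and Hey1, so these values describe the data and carry no test. They also take the line labels of both fractions as matched, although over all genes only 5 of 12 lines matched their own library best. Between genes, the input level of Notch2 correlated with that of Hey1 at 0.738, and Rnf43 correlated with Hey1 at -0.796 and with Hes1 at 0.788.

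The genes most alike in pattern were looked up among 8424 genes of the 12 relapse input libraries. For Rnf43 they were Plekhf2 (r of 0.915), Tnfrsf13c (0.915) and Kif18a (0.912), and with Tnfrsf13c, the BAFF receptor of B cells, the likeness was also seen in the polysomal libraries (0.923). Tnfrsf13c was at 19, 26.8 and 17.4 CPM in CX5461 lines, 33.4, 27 and 24 CPM in everolimus lines and 20.8, 20.2 and 20.2 CPM in combination lines, against 74.3, 69.5 and 48.8 CPM in naive lines, in the input. For Hey1 they were Adcy3 (0.938), Col27a1 (0.935) and Gdf11 (0.928), with polysomal values of 0.883, 0.95 and 0.944. Gdf11, a secreted factor of the TGF-β family, was highest in CX5461 line 20 at 26.1 CPM, as Hey1 was, against 1.47 to 2 CPM in naive lines. For Fzd7 they were Atp6v1d (0.907), Atp5f1 (0.9) and Dap (0.894), but Atp6v1d had an r of -0.483 in the polysomal libraries.

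Genes next to Rnf43 that the naive lines expressed were also found in the drug lines. These neighbours were chosen after the values of Rnf43 were seen. Supt4a, 2.01 kb beyond its end, was at 17.5 to 20.8 CPM in CX5461 lines, 16.1 to 21.3 CPM in everolimus lines and 16 to 20.9 CPM in combination lines, against 20.6 to 24.5 CPM in naive lines (edgeR adjusted p of 0.362, 0.182 and 0.121). Tspoap1, 25 kb beyond and listed under its older symbol Bzrap1, was at 6.77 to 12.3 CPM in CX5461 lines, 7.95 to 9.22 CPM in everolimus lines and 10.9 to 13.8 CPM in combination lines, against 3.42 to 4.73 CPM in naive lines. It rose in all 3 groups, with log2 fold changes of 1.33 ± 0.22, 1.07 ± 0.22 and 1.58 ± 0.22 and edgeR adjusted p of 0.00412, 0.0156 and 0.00144. On the other side Mtmr4, at 46.4 kb, was at 66.3 to 77.4 CPM in CX5461 lines, 67.2 to 81.8 CPM in everolimus lines and 52.8 to 61.3 CPM in combination lines, against 47.2 to 59.2 CPM in naive lines. Its log2 fold changes were 0.42 ± 0.12, 0.40 ± 0.12 and 0.05 ± 0.12 (edgeR adjusted p of 0.0449, 0.046 and 0.813). Hsf5 (3.18 kb before Rnf43) and Mpo (58 kb after it) did not exceed 0.836 CPM in any line, naive lines included. Next to Hey1, Mrps28 was higher in combination lines by a log2 fold change of 0.81 ± 0.16 (edgeR adjusted p of 0.00597), and no difference in Tpd52 passed the test (adjusted p of 0.384 or more).

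The other genes of both systems were taken from 8 lists with 130 genes, of which 73 were expressed enough to test in the relapse input and 74 in the polysomal RNA. In the input 8 were called higher and 2 lower in CX5461 lines, 7 higher and 5 lower in everolimus lines, and 10 higher and 6 lower in combination lines. That is 13.7%, 16.4% and 21.9% of those tested, beside 8.85%, 12.1% and 13.8% of all genes. These counts rest heavily on single lines. Without CX5461 line 14 the CX5461 lines had 3 list genes and 437 genes in all. Without everolimus line 12 the everolimus lines had 1 and 117, and without combination line 8 the combination lines had 7 and 984. With all lines, the median log2 fold changes of the list genes were 0.15, -0.03 and 0.14, beside medians of all genes of -0.03, -0.01 and -0.02. Polysomal counts were larger for CX5461: 16 were higher and 6 lower in CX5461 lines, 1 higher and 0 lower in everolimus lines, and 5 higher and 4 lower in combination lines. That is 29.7%, 1.35% and 12.2%, beside 19.5%, 0.128% and 10.2% of all genes. Without CX5461 line 20 the polysomal counts of list genes were 42, 3 and 21, beside 8929, 187 and 3743 genes in all. The lowest counts of list genes without any 1 line were 8, 0 and 3, and the lowest of all genes 535, 0 and 451.

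Among 9 tested Wnt receptors and surface regulators, Lgr5 rose in CX5461 and combination lines. Lgr5 binds R-spondins, which take Rnf43 and Znrf3 off the cell surface, and it marks stem cells of the gut. In the input it was at 29.5, 38.2 and 25.3 CPM in CX5461 lines 14, 20 and 39, at 7.81, 5.39 and 6.39 CPM in everolimus lines and at 25.5, 30.3 and 32.7 CPM in combination lines, against 5.66, 2.39 and 3.42 CPM in naive lines. The log2 fold change was 2.99 ± 0.28 for CX5461 and 2.90 ± 0.27 for the combination, with edgeR adjusted p of 9.88e-05 and 0.000126.

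Lgr5 rose in the polysomal RNA of all 3 drug groups. It was at 57.6, 60.2 and 58.5 CPM in CX5461 lines, 20.1, 13.3 and 14 CPM in everolimus lines and 54.2, 56.2 and 46.3 CPM in combination lines, against 7.86, 7.36 and 7.36 CPM in naive lines. No drug line overlapped the naive lines there, and the edgeR adjusted p were 4.33e-05, 0.0412 and 7.21e-05. The everolimus call was lost in 10 of 18 other fits, each without 1 line (without naive line 33 the adjusted p was 0.288), and the calls of the other groups held in all of them.

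Lrp6, the co-receptor of Frizzled, fell in CX5461 and combination lines. Its input level was 33.9, 39.8 and 34.3 CPM in CX5461 lines, 35.2, 32.8 and 44.7 CPM in everolimus lines and 25.6, 27.3 and 30.6 CPM in combination lines, against 66.8, 51.1 and 41.4 CPM in naive lines. The log2 fold change was -0.58 ± 0.17 for CX5461 (edgeR adjusted p = 0.0485, lost in 12 of 17 other fits) and -0.97 ± 0.17 for the combination (0.00371, held in all 17). The polysomal changes were -1.04 ± 0.18 and -1.05 ± 0.18, with adjusted p of 0.00753 and 0.00737. Without the polysomal libraries of CX5461 lines 14 and 39, which leaves 1 CX5461 line, the Lrp6 change there was -0.63 (0.0685). Fzd9, another Frizzled receptor, rose in the polysomal RNA of CX5461 lines by 1.35 ± 0.36 (0.0282), a call lost in 8 of 18 other fits.

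Of 20 tested cytoplasmic and nuclear Wnt factors, 2 were higher and 0 lower in CX5461 input, 3 higher and 1 lower in everolimus input, and 4 higher and 1 lower in combination input. That is 10%, 20% and 25%, beside 8.85%, 12.1% and 13.8% of all genes. Pygo2, which links β-catenin to chromatin, was at 111, 101 and 95.5 CPM in CX5461 lines, 94.3, 108 and 79.3 CPM in everolimus lines and 97.1, 95.1 and 104 CPM in combination lines, against 58.4, 64.1 and 46.6 CPM in naive lines. All drug lines were above the naive lines, and the log2 fold changes were 0.84 ± 0.13, 0.68 ± 0.13 and 0.77 ± 0.13 (edgeR adjusted p of 0.0028, 0.0121 and 0.00319), with the everolimus call lost without everolimus line 12 (0.0619). Tle1, a co-repressor of Tcf/Lef proteins, also rose in all 3 groups, by 0.62 in CX5461 and 0.57 in everolimus lines with adjusted p of 0.021 and 0.0272, and by 0.47 in combination lines (0.0476). The CX5461 and everolimus calls of Tle1 were lost in 5 and 6 of 17 other fits. Gsk3a, a kinase that marks β-catenin for degradation, rose by 0.57 ± 0.11 in combination input (0.00676), and Apc, a scaffold of the same complex, fell there by 0.65 on the log2 scale (0.0162, lost in 3 of 17 other fits). Csnk1a1, another kinase of that complex, fell by 0.56 in everolimus input (0.0207, lost in 5 of 17). In polysomal RNA of CX5461 lines Gsk3a rose by 0.76, a call lost in 8 of 18 other fits. Gsk3b was lower in polysomal RNA of CX5461 and combination lines, with log2 fold changes of -0.42 and -0.50 (lost in 15 and 10 of 18).

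Of 3 tested Wnt target genes, Cd44, a surface glycoprotein, fell in combination input by 0.75 on the log2 scale (edgeR adjusted p = 0.0423, lost in 7 of 17 other fits) and in the polysomal RNA of CX5461 and combination lines by 1.04 and 0.91 (0.00755 and 0.0133, lost in 1 and 3 of 18). Tnfrsf19 rose in polysomal RNA of CX5461 lines by 2.67 ± 0.79 (0.0435), where lines 14 and 39 were at 163 and 174 CPM and line 20 at 30 CPM, against 13.6 to 25.2 CPM in naive lines. That call was lost in 14 of 18 other fits.

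Of 15 tested genes of Notch processing and glycosylation, 2 were higher and 0 lower in CX5461 input, 3 higher and 2 lower in everolimus input, and 3 higher and 2 lower in combination input. That is 13.3%, 33.3% and 33.3%, beside 8.85%, 12.1% and 13.8% of all genes. Lfng, a Fringe glycosyltransferase that adds sugars to Notch and alters its response to ligands, was at 159, 103 and 141 CPM in CX5461 lines, 82.1, 84.1 and 86.4 CPM in everolimus lines and 102, 109 and 95 CPM in combination lines, against 47.8, 64.6 and 45.6 CPM in naive lines. No drug line overlapped the naive lines. The log2 fold changes were 1.33 ± 0.16, 0.63 ± 0.16 and 0.90 ± 0.16, with edgeR adjusted p of 0.000783, 0.0278 and 0.00419. The everolimus call of Lfng was lost in 5 of 17 other fits, without naive lines 6 or 38 or any 1 everolimus line, and polysomal Lfng was at 49.7, 47.7 and 51.2 CPM in everolimus lines, against 52, 47 and 50.1 CPM in naive lines.

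The Fringe enzyme Mfng rose in CX5461 and everolimus input, by 0.48 ± 0.13 (edgeR adjusted p = 0.0363, lost in 11 of 17 other fits) and 0.77 ± 0.13 (0.00981). Aph1a, a subunit of the γ-secretase that cuts Notch inside the membrane, rose by 0.93 ± 0.16 in combination input (0.00384) and in polysomal RNA of CX5461 and combination lines by 1.24 ± 0.21 and 0.91 ± 0.21 (0.00635 and 0.0222, lost in 2 and 6 of 18 other fits). The proteases that make the cut before it went the other way in the input. Adam10 fell by 0.75 in everolimus lines (0.0201) and by 0.60 in combination lines (0.0348), and Adam17 fell by 0.55 in everolimus lines (0.0201) and by 0.42 in combination lines (0.0438). The everolimus and combination calls were lost in 3 and 6 of 17 other fits for Adam10, both without naive line 6 among them, and in 4 and 12 of 17 for Adam17. Neither protease was called in the polysomal RNA of either group.

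Of 17 tested Notch nuclear factors and ubiquitin ligases, Dtx3, a Deltex relative of Dtx1, rose in the input of all 3 groups, whereas the summed level of Dtx1 was lower in them. Dtx3 was at 10, 6.89 and 6.08 CPM in CX5461 lines, 6.47, 14.8 and 7.57 CPM in everolimus lines and 11.6, 7.92 and 8.61 CPM in combination lines, against 1.76, 2.92 and 3.27 CPM in naive lines. The log2 fold changes were 1.48 ± 0.34, 1.78 ± 0.34 and 1.75 ± 0.34 (edgeR adjusted p of 0.019, 0.0129 and 0.0062). The CX5461 call of Dtx3 was lost without CX5461 line 14 (0.09) or naive lines 6 (0.0565) or 33 (0.06), and the everolimus call without everolimus line 12 (0.0613). Rbpj, the DNA-binding partner of cut Notch, fell by 0.79 in everolimus input (0.0364), where it was at 9.85, 10.3 and 11.8 CPM, against 26.4, 13.3 and 13.9 CPM in naive lines. Naive line 6 held the highest Rbpj level, and without it the change was -0.48 (0.114). That call was lost in 8 of 17 other fits.

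Mib1, a ligase needed for the activity of Notch ligands, fell by 0.53 in everolimus input (edgeR adjusted p = 0.0469), lost in 13 of 17 other fits. Kdm5a, a histone demethylase that works with Rbpj, fell by 0.56 in CX5461 and by 0.64 in combination input (0.0281 and 0.0119, lost in 6 and 2 of 17 other fits), and by 0.39 and 0.58 in the polysomal RNA (0.0296 and 0.0081, lost in 8 and 0 of 18). Maml1, the co-activator of the Notch and Rbpj complex, rose by 0.57 ± 0.14 in combination input (0.0174, lost in 5 of 17 other fits), and Fbxw7, a ligase that targets Notch and Myc, by 0.68 ± 0.19 in CX5461 input (0.0404, lost in 10 of 17 other fits). Mib2 rose in the polysomal RNA of CX5461 and combination lines, by 1.30 ± 0.29 and 1.08 ± 0.29 (0.0167 and 0.0405). Those Mib2 calls were lost in 7 and 8 of 18 other fits, and with the run of columns as a term the CX5461 change was 0.30.

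Of the 3 tested Notch ligands and other receptors, Jag2, a Notch ligand, rose in the polysomal RNA of CX5461 lines, where it was at 3.32, 3.19 and 4.95 CPM, against 1.4 CPM in each naive line (log2 fold change 1.44 ± 0.43, edgeR adjusted p = 0.0383, lost in 11 of 18 other fits). Of 4 other Notch target genes, Nrarp rose by 1.38 ± 0.40 (0.0365) and Ptcra fell by 3.49 on the log2 scale (0.0313) in the polysomal RNA of CX5461 lines. Ptcra was at 0, 0.185 and 0 CPM there, against 0.608, 0.451 and 0.912 CPM in naive lines, so its fitted change is no bound. These calls were lost in 9 and 8 of 18 other fits.

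**Figure D3:**
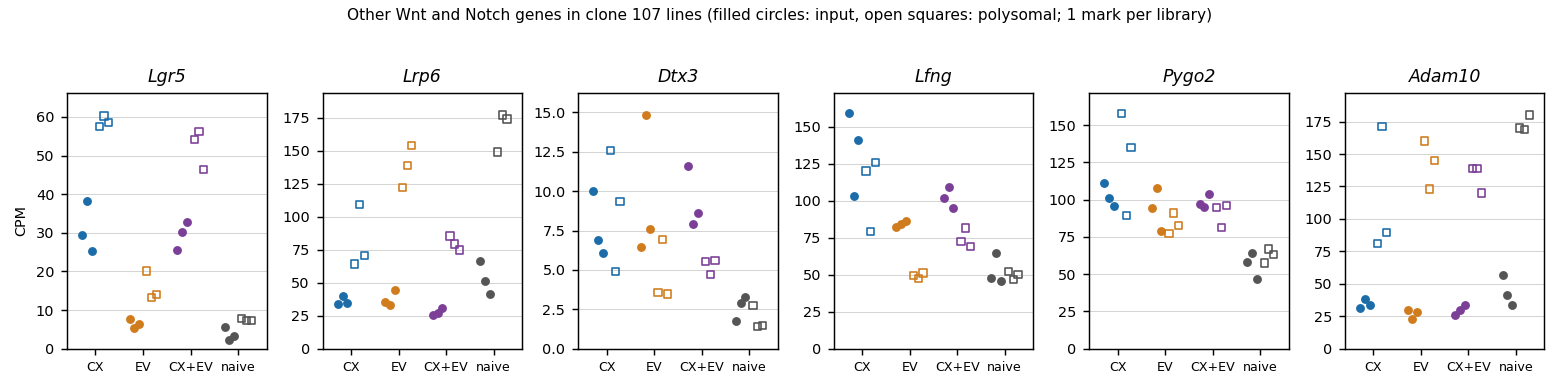
Levels of Lgr5, Lrp6, Dtx3, Lfng, Pygo2 and Adam10 in each clone 107 line, in CPM from 0, by treatment of the mouse the line came from; circles are input and squares polysomal libraries. In the input Lgr5 is at 25.3 to 38.2 CPM in CX5461 and combination lines, against 2.39 to 5.66 CPM in naive lines, and polysomal Adam10 is lower in CX5461 lines 14 and 39 (81 and 89.3 CPM) than in line 20 (171 CPM).

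Polysomal and input RNA of the same lines, as labelled, were then compared over all 12 lines, a contrast that did not choose the genes. The SE and p-values of a fit with a block on the line take these labels as matched. Over all genes 5 of 12 lines matched their own library best, and over the 500 most variable genes 4 of 12. With both fractions scaled together and a block on the line, 71.3% of all genes differed, with a median log2 ratio of polysomal to input RNA of -0.16. Of the 10 genes edgeR called 8, all lower in the polysomal RNA, and Rnf43 is 1 of them. The ratio of Rnf43 averages the 4 treatments with equal weight, among them the CX5461 lines with 9 input and 3 polysomal counts in all. Since 8 of the 12 lines held 0 to 5 counts of Rnf43, this ratio is given with no test (-0.92). The others were Hes1 (-1.02 ± 0.09, edgeR adjusted p = 3.62e-07), Dtx1 (-0.83 ± 0.10, 4.9e-06), Lef1 (-0.81 ± 0.24, 0.0109), Notch1 (-0.74 ± 0.06, 3.56e-07), Notch2 (-0.68 ± 0.05, 9.79e-08), Znrf3 (-0.64 ± 0.07, 2.85e-06) and Hey1 (-0.62 ± 0.18, 0.00643). Tcf7 (-0.39 ± 0.21, 0.107) and Fzd7 (-0.34 ± 0.16, 0.0739) did not pass.

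The direction of these ratios depends on the scaling, so they are best read against the median of all genes. A few short RNAs, Rn7sk and Rpph1 among them, held 14.8 to 28.9% of the relapse input counts and 1.03 to 1.94% of the polysomal counts. With library totals in place of the scaling factors the median of all genes was 0.51, Znrf3, Fzd7, Tcf7 and Hey1 turned to the polysomal side and 1 of the 10 genes, Hes1, passed the test. Relative to the median, Hes1 was at -0.86 under both scalings. The Lef1 call was lost without a count filter (edgeR adjusted p = 0.0629) and without the polysomal libraries of CX5461 lines 14 and 39 (0.0543), and the Hey1 call without naive line 38 (0.108). Without the block on line 5 of the 10 genes passed. The share of all genes called is not given here for library totals or without the block, so nothing is read from those counts.

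The acute mice gave smaller ratios, with 76.7% of genes called and a median of -0.04. There 6 of the 10 genes were lower and 1 was higher in the polysomal RNA: Lef1 (-0.53 ± 0.07, edgeR adjusted p = 3.75e-09), Hes1 (-0.48 ± 0.04, 1.14e-13), Tcf7 (-0.28 ± 0.04, 3.38e-07), Hey1 (-0.27 ± 0.11, 0.0291), Notch2 (-0.20 ± 0.03, 1.21e-07), Notch1 (-0.11 ± 0.04, 0.0153) and Dtx1 (0.20 ± 0.03, 1.23e-06). With library totals the median was 0.25 and all of these but Lef1, Hes1 and Dtx1 changed side. Lef1 and Hes1 were thus on the input side under both scalings in both settings, while Dtx1 was on the input side in the relapse lines and on the polysomal side in the acute mice. The difference between settings was not tested. The Hey1 call was lost in DESeq2 (adjusted p = 0.0626).

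**Figure D4:**
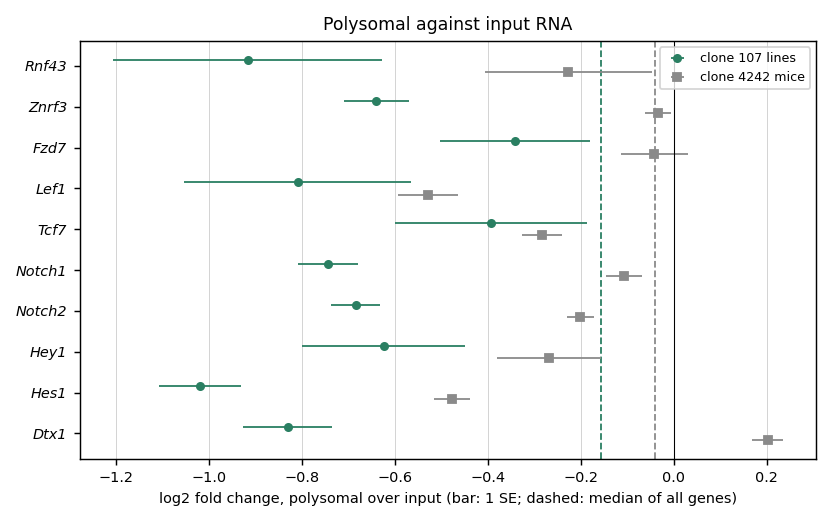
Log2 ratio of polysomal to input RNA with 1 SE for the 10 genes, in the relapse lines (n = 12) and the acute mice (n = 24), scaled over both fractions together; dashed lines are the medians of all genes (-0.16 and -0.04). Hes1 and Lef1 lie to the left of both medians, and Dtx1 lies left of it in relapse lines (-0.83) and right of it in acute mice (0.20).

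In the acute study the test could be applied to the 10 genes themselves, because the rule did not use it. Rnf43 was too low for the single-fraction tests. In the input it was at 0.247, 0.309 and 0.549 CPM (lowest, median and highest of 6 mice) after CX5461, at 0.322, 0.503 and 0.583 CPM after everolimus and at 0.149, 0.27 and 0.414 CPM after both drugs, against 0.154, 0.404 and 0.703 CPM after vehicle. All groups overlapped. Naive clone 107 lines had 53.9 to 83.8 CPM of Rnf43, but these levels come from tables scaled separately and from different clones, and the difference was not tested. Hey1 in the input was at 0.767 to 1.44 CPM after CX5461, 0.961 to 1.76 CPM after everolimus and 0.588 to 1.29 CPM after both drugs, against 1.03 to 1.55 CPM after vehicle.

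In the acute input none of the 9 tested genes passed the edgeR test in any of the 3 drug groups. The unadjusted p was under 0.05 for 4 after CX5461, 0 after everolimus and 3 after the combination, and DESeq2 called 1 gene, Tcf7 after CX5461 (adjusted p = 0.0434). Of all genes edgeR called 0.392% after CX5461, 0.0934% after everolimus and 7.75% after the combination. For polysomal RNA it called 0.82%, 0.124% and 7.55% of all genes, and of the 9 tested it called 0 after CX5461 and everolimus, with 3 and 0 at an unadjusted p under 0.05 and 0 by DESeq2, and 2 after the combination.

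Those 2 were Lef1 and Tcf7. Polysomal Lef1 was at 1.55, 2.32 and 3.07 CPM (lowest, median and highest) after the combination, against 2.67, 4.14 and 6.27 CPM after vehicle, and polysomal Tcf7 at 4.8, 7.63 and 10.6 CPM, against 9.82, 11.7 and 18.3 CPM. All 6 combination mice were below the vehicle mean for both genes, and the groups overlapped at their edges. The log2 fold change was -0.86 ± 0.21 for Lef1 (edgeR adjusted p = 0.0171) and -0.79 ± 0.19 for Tcf7 (0.0202), and both calls held in the 7 alternative fits. After CX5461 the values were -0.45 ± 0.20 and -0.54 ± 0.19 (adjusted p of 0.279 and 0.157), and after everolimus -0.11 ± 0.20 and -0.12 ± 0.19 (0.902 and 0.879).

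T cells also express Lef1 and Tcf7, and T cell markers moved with them. The summed level of 15 T cell markers in the polysomal RNA was 69.7 to 106 CPM after the combination and 75.3 to 88.3 CPM after CX5461, against 103 to 146 CPM after vehicle, and none of the 15 was at 0. In the input it was 62.9 to 92.1 CPM after the combination and 64 to 77.4 CPM after CX5461, against 92.2 to 121 CPM after vehicle, and input Tcf7 averaged 8.56 ± 2.54 and 7.59 ± 1.28 CPM, against 12.7 ± 3.75 CPM (SD, n = 6 each). Their part in the result was not tested.

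Notch2 was close to the threshold. Its polysomal level was 349, 429 and 535 CPM (lowest, median and highest) after the combination, against 215, 348 and 385 CPM after vehicle, and 6 of 6 combination mice were above the vehicle mean. The log2 fold change was 0.44 ± 0.14 (edgeR adjusted p = 0.0504), and the call was made by DESeq2 (0.0244), with RLE size factors (0.0497) and without vehicle mouse 6 and combination mouse 3 (0.0115). Without those mice Znrf3 also passed in both fractions, and Fzd7, Tcf7 and Hes1 in the input. Calls over all genes after the combination rose there too, from 1244 to 3580 in the input and from 1161 to 3292 in the polysomal RNA. Over all genes combination mouse 3 was close to vehicle mouse 2, with a median gene variance 2.72 times that of sampling in the input. In the polysomal RNA that value was 2.81 times. These pairs ranked 4 and 3 in closeness among the acute pairs of their fraction, and the cause was not tested. Leaving out a treated mouse close to a vehicle mouse can by itself widen the drug difference. Nothing is therefore read from the calls made without those mice. Notch1 after CX5461 was at 51, 68.1 and 96.5 CPM in the polysomal RNA, against 62.7, 99.3 and 121 CPM after vehicle, with a log2 fold change of -0.46 ± 0.15 that did not pass (0.127).

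**Figure D5:**
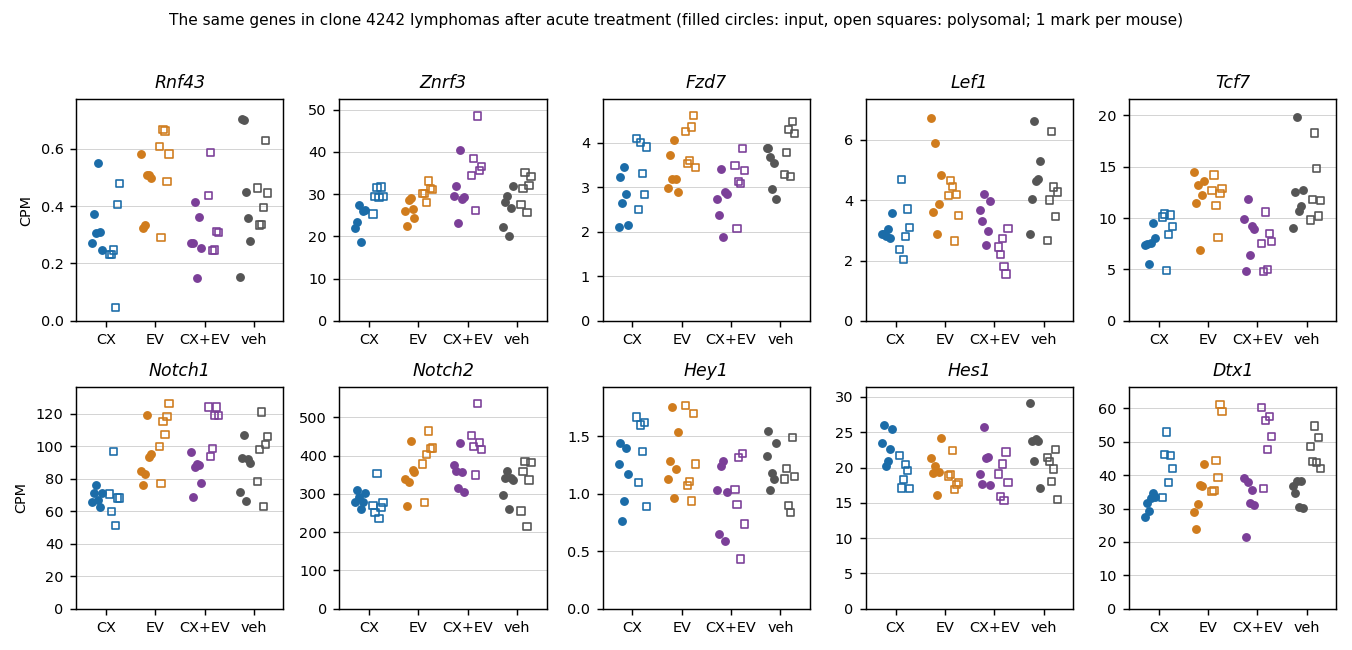
Levels of the 10 genes in each clone 4242 mouse after 2 h of treatment, in CPM from 0, by group (6 mice each); circles are input and squares polysomal libraries, and veh is vehicle. Polysomal Lef1 and Tcf7 are lower after the combination (means 2.3 and 7.37 CPM) than after vehicle (4.19 and 12.8 CPM), and Rnf43 stays under 1 CPM in every group.

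Whether a drug changed the share of a transcript on polysomes in the acute mice was tested as translational efficiency, the drug difference of the polysomal to input ratio. By edgeR 0% of genes were called after CX5461, 0% after everolimus and 0% after the combination, with 769, 1053 and 2116 of 16421 genes at an unadjusted p under 0.05 and 0, 8 and 4 genes called by DESeq2. Of the 10 genes 0, 1 and 4 were under 0.05 unadjusted. Notch2 after the combination had the smallest edgeR adjusted p of the 10, with a log2 difference of 0.30 ± 0.08 (0.197). It passed without vehicle mouse 6 and combination mouse 3 (0.38, adjusted p = 0.0235). That fit can widen drug differences, so nothing is read from the call.

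Of the other Wnt and Notch genes 92 were tested in each acute fraction. In the input edgeR called 0 higher and 1 lower after CX5461, 0 after everolimus (6 at an unadjusted p under 0.05, 1 by DESeq2), and 3 higher and 4 lower after the combination. That is 1.09%, 0% and 7.61% of those tested, beside 0.392%, 0.0934% and 7.75% of all genes. The combination share was thus near that of all genes. Axin2, a feedback inhibitor and Wnt target, fell by 1.04 on the log2 scale after the combination (edgeR adjusted p = 0.0346, lost in 2 of 7 other fits), and Ccnd1, cyclin D1, by 0.27 (0.0168, held in all 7). Dvl2, an adaptor of Frizzled, fell by 0.37 (0.0374, lost in 2 of 7), while Maml3 and Kdm5a rose by 0.56 ± 0.16 and 0.39 ± 0.11 (0.0333 and 0.0296). Gsk3a was the other gene called lower there, at -0.21 to -0.18 in 7 other fits, with the call lost in 4 of them. It was higher in combination input of the relapse lines, a difference between studies that was not tested. Dtx3l, a Deltex relative, was the gene that fell after CX5461, by 0.29 (0.0363, lost in 4 of 7 other fits).

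In the acute polysomal RNA edgeR called 0 higher and 1 lower after CX5461, 0 higher and 1 lower after everolimus, and 5 higher and 2 lower after the combination. That is 1.09%, 1.09% and 7.61% of those tested, beside 0.82%, 0.124% and 7.55% of all genes. The combination share was again near that of all genes. Ccnd1 fell by 0.25 after everolimus (edgeR adjusted p = 0.0382, lost in 4 of 7 other fits) and by 0.24 after the combination (0.00777). Cr2, a complement receptor of B cells that Notch2 is known to raise, fell by 0.91 after CX5461 (0.0481, lost in 4 of 7). Lgr6, a relative of Lgr5, rose by 0.41 ± 0.10 after the combination (0.0206), Tle3, a relative of Tle1, by 0.31 ± 0.08 (0.0293), Maml1 by 0.36 ± 0.10 (0.0306), Dvl1 by 0.34 ± 0.10 (0.0465, lost in 3 of 7) and Kdm5a by 0.35 ± 0.10 (0.0408). Sfrp1, a secreted Wnt inhibitor, fell by 0.68 (0.0493, lost in 5 of 7). Kdm5a was thus higher after the combination in acute mice and lower in combination lines of the relapse study, in both fractions, a difference between studies that was not tested.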

How the data were processed

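The authors deposited raw read counts per gene symbol in 4 tables, 1 per study and fraction. Reads of 50 bp from libraries depleted of ribosomal RNA were aligned to GRCm38 with TopHat2 and counted with HTSeq, per the submitters' processing notes; versions, annotation and strand setting are not given in the sources used here. Every sample column was used, and in the acute tables reads assigned to no gene (8.32 to 36.1% per library) were left out.

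Each table was fitted with edgeR 4.0.16 (quasi-likelihood test, TMM, filterByExpr, 4 groups in 1 model), under R 4.3.3, with Benjamini-Hochberg adjustment over all genes tested and a threshold of 0.05. CPM are TMM-scaled within a table, so no test was made between levels of different tables; log2 CPM in correlations use a prior count of 2. SE was taken as the size of the log2 fold change divided by the root of its F statistic. Polysomal and input libraries of a study were fitted together with a block on line or mouse. Folds of summed counts have 95% counting intervals. Replicate numbers did not pair acute mice (mean correlation of same-numbered libraries 0.048 for input and -0.014 for polysomal). The fits were tested on simulated data. Positions are from GENCODE M21, and promoters from RefSeq.

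The 10 genes and the 8 lists were chosen with earlier results of these data known. Other list genes are named, at most 2 per list and direction in a comparison, by the size of the log2 fold change among those past the threshold; Tle1 in combination lines is added for its calls in all 3 groups. Alternatives were DESeq2 1.42.0, a fit of only the compared groups, testing without the count filter, RLE size factors, a replicate block or none, each relapse line left out, libraries rich in a few genes left out, and vehicle mouse 6 with combination mouse 3 left out. Each relapse line was left out for every comparison of its study, also where its own group was not compared. Added after seeing the data were the run of columns as a term, the polysomal libraries of CX5461 lines 14 and 39 left out, and library totals without scaling factors.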

Additional observations from a re-analysis of the deposited data

Results flagged for a closer look

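Among 80 groups of 6 acute mice screened over the 10 genes, 4 had a mouse far from the others, by Dixon's ratio, about the 5% of groups that chance gives. Lef1 in the input of CX5461 mouse 6 was at 3.58 CPM, with the next mouse at 3.06 CPM. Tcf7 in the input of vehicle mouse 3 was at 19.8 CPM, with the next at 12.7 CPM. In the polysomal RNA of CX5461 mouse 3, Tcf7 was at 4.87 CPM, with the next at 8.41 CPM, and Notch2 at 353 CPM, with the next at 278 CPM.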

How the results depend on the processing

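Counts below run in the order CX5461, everolimus, combination unless a group is named. With DESeq2 the genes called were 148 and 135 (acute input, CX5461 and everolimus), 360 and 87 (acute polysomal RNA, the same), 8 and 4 (translational efficiency, everolimus and combination) and 215 and 2411 (relapse polysomal RNA, everolimus and combination); 1 of the 10 genes passed in acute CX5461 input; and other Wnt and Notch genes numbered 1 and 11 (acute input, everolimus and combination), 13 (acute polysomal combination), and 3 and 15 (relapse polysomal everolimus and combination). With the compared groups alone, genes called were 680 (acute input combination), 217 (acute polysomal CX5461), 687, 1035 and 1273 (relapse input) and 456, 166 and 3178 (relapse polysomal), and other list genes 0 and 3 (acute input CX5461 and combination), 0 (acute polysomal everolimus), 4 (relapse CX5461 input) and 5 and 20 (relapse polysomal CX5461 and combination). With no count filter, genes called were 752 (acute input combination), 83 and 610 (acute polysomal CX5461 and combination) and 118, 78 and 322 (translational efficiency), 1 of the 10 genes passed in combination translational efficiency, and other list genes were 0 (acute CX5461 in both fractions, everolimus polysomal) and 2 (combination translational efficiency). RLE size factors left 0 other list genes in acute polysomal CX5461. The replicate block gave 763 genes and 4 other list genes in acute polysomal combination and 0 other list genes in everolimus, and no replicate block gave 5 of the 10 genes in relapse polysomal against input; library totals gave 1. Without the libraries rich in a few genes, genes called were 1 and 6 (acute input CX5461 and everolimus), 1 and 4 (polysomal) and 83 (combination translational efficiency), and other list genes 0 (CX5461 in both fractions, everolimus polysomal), 12 (combination polysomal) and 1 (combination translational efficiency). Without vehicle mouse 6 and combination mouse 3, genes called were 93 and 3580 (acute input everolimus and combination), 56, 46 and 3292 (acute polysomal) and 215 (combination translational efficiency), 4, 4 and 1 of the 10 genes passed with the combination in input, polysomal RNA and translational efficiency, and other list genes were 0, 1 and 20 (input), 0 and 20 (polysomal CX5461 and combination) and 2 (combination translational efficiency). The polysomal libraries of CX5461 lines 14 and 39 left out gave 568, 85 and 3279 genes and 3 and 20 other list genes (CX5461 and combination). The run of columns as a term gave 2352, 4432 and 3676 genes (relapse input), 779, 548 and 3932 (relapse polysomal), and 17, 28 and 26 and 5, 7 and 20 other list genes. Each relapse line left out gave 437 to 1257, 117 to 1896 and 836 to 2266 genes (input) and 535 to 8929, 0 to 187 and 451 to 3743 (polysomal), with other list genes at 3 to 11, 1 to 11 and 7 to 17 (input) and 8 to 42, 0 to 3 and 3 to 21 (polysomal); the lowest input gene counts were without CX5461 line 14, everolimus line 12 and combination line 9, the lowest polysomal gene counts without naive line 38 in all 3 groups, and the highest polysomal gene counts without CX5461 line 20 in all 3. The causes were not tested.

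Some values changed sign. In acute input, Hes1 after CX5461 was -0.0024 with no count filter and -0.0593 without vehicle mouse 6 and combination mouse 3; after everolimus Znrf3 was -0.0027 with DESeq2 and -0.018 with no count filter, Lef1 -0.007 with no count filter and Dtx1 0.0407 without the rich libraries. In acute polysomal RNA, Znrf3 after everolimus was 0.0584 without the rich libraries and 0.0065 without vehicle mouse 6 and combination mouse 3, and Hey1 after the combination 0.0361 without the rich libraries. With library totals, polysomal against input turned to 0.0298 (Znrf3), 0.3411 (Fzd7), 0.2729 (Tcf7) and 0.0531 (Hey1) in relapse lines, and to 0.0484 (Rnf43), 0.2562 (Znrf3), 0.2468 (Fzd7), 0.0052 (Tcf7), 0.1821 (Notch1), 0.0887 (Notch2) and 0.0092 (Hey1) in acute mice. With 0 to 5 counts of Rnf43 in each library of the drug lines other than everolimus line 4, its levels among those 8 lines cannot be ranked.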
